A study of Rattus norvegicus with 46 samples.

Results

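Akip1, Pkia, Pde4a, Prkar1a and Prkar2b, 5 genes of protein kinase A signalling, were followed through 5 rat models of cardiac hypertrophy and in the neonatal ventricle. Every probe set annotated to exactly 1 of these symbols was taken, which gave 11 of the 8740 probe sets on the array and 5 of 4736 gene symbols. Akip1 had 4 probe sets, Pkia 3, Pde4a 2, and Prkar1a and Prkar2b had 1 each. The set was chosen by the log2 differences of Akip1 between hypertrophic and control hearts, with the results of all arrays known. Effects of hypertrophy on the 5 genes are therefore described without a test, and tests are given only for the neonatal comparison, for the time after sham operation and for pathway genes outside the 5.

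All rats were male Wistar, and each of the 46 arrays held 1 pool of ventricular RNA, so that the errors below measure spread between pools. Pressure overload was produced by a clip on the ascending aorta (aortic banding) and sampled after 6, 12 and 16 weeks (2 arrays each) and 30 weeks (4 arrays). Myocardial infarction by coronary ligation was sampled after 3 and 9 weeks (4 arrays each, the scar having been discarded), and volume overload by an aortocaval shunt after 3 and 8 weeks (2 arrays each). Angiotensin II and the thyroxin analogue Ditpa were given subcutaneously for 2 weeks (2 arrays each). Every surgical time point had 2 sham arrays of its own and the hormones shared 2 vehicle (saline) arrays, in all 18 adult control arrays in 9 groups. The remaining 2 arrays held neonatal left ventricle, taken shortly after birth. The numbers given are model-based intensities of a probe set, linear unless stated to be log2. A log2 difference is the estimate of 1 limma fit of all 20 groups ± its SE, and levels of different probe sets are not compared, because probe sets differ in brightness.

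Protein kinase A is the main effector of cyclic AMP, the second messenger through which beta-adrenergic stimulation raises the force and rate of the heart. At rest its catalytic subunits are held inactive by regulatory subunits, which differ in tissue distribution and in anchoring. Cyclic AMP releases them, phosphodiesterases remove cyclic AMP, inhibitor peptides block the free catalytic subunit, and anchoring proteins place the enzyme beside its substrates. Akip1 encodes a protein that binds the catalytic subunit and favours its retention in the nucleus, and that also binds the NF-kappa-B subunit p65.

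The 11 probe sets were present at very different ranks of the array. By mean log2 over all arrays they lay between the 6.56 percentile (Akip1 rc_AA799992_at) and the 93.5 percentile (Prkar1a). None of their values reached the floor of 16 applied before taking logs. Array medians ran between 1003 and 1084, and no 2 arrays were identical. The highest value on an array was 22581 to 23633 on the 4 hormone-treated arrays, 24526 to 30195 on the neonatal arrays and 27718 to 64884 on the others. None of the 10 cardiomyocyte markers measured was at the floor on any array. The brightest, Actc1 and Tnni3, stood at 98.7% or more of the array's highest value on every adult control and neonatal array, so that differences of the very brightest probe sets follow that value.

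Akip1 showed a large rise with 1 pair of its probe sets and almost none with the other pair. The probe sets of the first pair, rc_AA799992_at and rc_AA799992_g_at, are derived from the same expressed sequence tag and are not independent measurements. Those of the second, rc_AA799801_at and rc_AA799801_g_at, share another tag. All 4 carry the symbol Akip1 in the platform annotation. The sequence at the start of the Akip1 gene is shown here because the first pair had the largest rise among the 11 probe sets. It is the RefSeq window of 300 bases in build GRCr8, chr1:173169381-173169680, plus strand, of which 250 lie before the annotated start and 50 after it. The cyclic AMP response element TGACGTCA and its half-site TGACG, which is part of it, were searched on both strands and would be printed in capitals. Neither string of letters was in this window.

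Akip1: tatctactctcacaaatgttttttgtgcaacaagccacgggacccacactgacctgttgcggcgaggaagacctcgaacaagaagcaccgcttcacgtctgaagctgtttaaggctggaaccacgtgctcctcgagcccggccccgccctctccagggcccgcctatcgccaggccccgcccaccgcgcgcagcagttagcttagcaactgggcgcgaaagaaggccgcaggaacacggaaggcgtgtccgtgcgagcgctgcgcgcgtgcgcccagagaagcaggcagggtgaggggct

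TGACGTCA was found in 1.83% and TGACG in 21.2% of all 33469 such windows of the rat table, so the absence of these letters is the usual case.

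After aortic banding, Akip1 rc_AA799992_g_at read 4131 and 4792 at 6 weeks against 1139 and 738 in sham hearts. At 12 weeks it read 3510 and 5631 against 891 and 1398 in sham. At 16 weeks it was 4692 and 4208 against 1107 and 1049 in sham. All of these banded arrays stood above every banding sham array. At 30 weeks the 4 banded arrays gave 6438, 6066, 5490 and 7182 against 1172 and 1419 in sham. The lowest of the 10 banded arrays (3510) was thus far above the highest of their 8 sham arrays (1419). The log2 difference was 2.28 ± 0.278 at 6 weeks, 1.99 ± 0.278 at 12 weeks, 2.04 ± 0.278 at 16 weeks and 2.28 ± 0.241 at 30 weeks. The 4 estimates were close to each other beside these errors, and gave 2.15 ± 0.135 together, a 4.44-fold difference.

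After infarction the rise was smaller. At 3 weeks rc_AA799992_g_at read 2031, 1700, 2032 and 2455 in infarcted hearts against 925 and 1013 in sham, a log2 difference of 1.07 ± 0.241. At 9 weeks it read 4492, 2315, 1945 and 1800 against 1058 and 918 in sham, a difference of 1.32 ± 0.241. All 8 infarcted arrays were above all 4 sham arrays. One of them, replicate 1 at 9 weeks, reached the range of the banded hearts, and without it the infarction effect was 1.05, against 1.20 ± 0.171 with it.

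In shunted hearts the same probe set read 1661 and 1711 at 3 weeks against 1265 and 1113 in sham. At 8 weeks it read 2289 and 1783 against 1232 and 1349 in sham. The 4 shunt arrays stood above the 4 sham arrays, by 0.58 ± 0.197 log2. Angiotensin II gave 1715 and 1788 and Ditpa 1733 and 1380, against 1203 and 1568 with vehicle. The angiotensin II arrays were above both vehicle arrays and the Ditpa arrays overlapped them, with differences of 0.35 ± 0.278 and 0.17 ± 0.278 log2. These hormone effects depended on single arrays. Without vehicle replicate 1 they became 0.16 for angiotensin II and -0.020 for Ditpa, without vehicle replicate 2 they became 0.54 and 0.36, and without Ditpa replicate 1 the Ditpa effect was 0.0069 (0.33 without replicate 2).

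Ordered by group mean, rc_AA799992_g_at stood at 6294 ± 709 in 30-week banded hearts (SD, n = 4) and at 4571 ± 1500, 4461 ± 468 and 4450 ± 343 in 12-, 6- and 16-week banded hearts (n = 2 each). These last 3 did not differ beyond their spread. They were followed by infarction at 9 weeks (2638 ± 1255, n = 4) and 3 weeks (2054 ± 309, n = 4), the shunt at 8 weeks (2036 ± 358, n = 2), angiotensin II (1751 ± 52.1), the shunt at 3 weeks (1686 ± 35.8) and Ditpa (1557 ± 249). Neighbours between infarction at 9 weeks and Ditpa differed by less than the larger of their SDs, except angiotensin II and the 3-week shunt, whose arrays lay close together within each group. The neonatal level (1404 ± 82.3) and that of vehicle (1386 ± 258) came next, and the 8 sham groups lay between 938 and 1295.

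The dimmer member of the pair, rc_AA799992_at, likewise had its largest log2 difference after banding and the next largest after infarction. Its intensity was 76.0 to 187 in adult controls. By median intensity, however, infarcted hearts (202) stood below shunted (240) and hormone-treated hearts (223). In banded hearts it read 410 to 1229 with a median of 649.9, against 94.1 to 187 with a median of 127 in sham, a difference of 2.30 ± 0.190 log2 with every banded array above every sham array. In infarcted hearts it ran between 123 and 510, median 202, against 76.0 to 136 in sham. The difference was 0.45 ± 0.340 at 3 weeks and 1.67 ± 0.340 at 9 weeks, where the 2 sham arrays (76.0 and 91.4) were the lowest controls of all. Shunted hearts read 230, 101, 306 and 250 against 156, 142, 141 and 161 in sham (0.45 ± 0.278 log2), a value that became 0.16 without 3-week shunt replicate 1 and 0.75 without replicate 2. Angiotensin II and Ditpa gave 0.46 ± 0.393 and 0.41 ± 0.393. The Ditpa value was 0.11 without its replicate 1 and 0.70 without its replicate 2.

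Over the 10 treated groups rc_AA799992_at and rc_AA799992_g_at were higher by 1.31 ± 0.126 and 1.27 ± 0.0892 log2, on 24 and on 26 of 26 arrays compared with the mean of their own controls. They ranked 7 and 8 from the highest of 8740 probe sets in this average, and 5 and 6 after banding. Without the banding groups the averages were 0.65 and 0.68. These ranks and counts restate what the genes were chosen for and support nothing further. Because the RNA came from whole ventricle, more RNA per cell and a larger share of cells that hold it cannot be told apart.

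The other pair did not share this pattern. In banded hearts rc_AA799801_at read 718 to 1089 with a median of 997, against 778 to 1023 and a median of 957 in sham. Its average over the treated groups was -0.014 ± 0.0518 log2, with 14 of 26 arrays higher. All 4 shunt arrays (809, 717, 882 and 937) were below the mean of their own sham arrays (1048, 846, 1113 and 871), but the groups overlapped, at -0.21 ± 0.114. For rc_AA799801_g_at the average was 0.086 ± 0.0509 (18 of 26 arrays). It was higher on 9 of 10 banded arrays, 1894 to 2227 with a median of 2128 against 1326 to 2131 with a median of 1808 in sham, by 0.24 ± 0.0769. Infarction (-0.051 ± 0.0973) and the shunt (-0.083 ± 0.112) had estimates below 0.

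**Figure D1:**
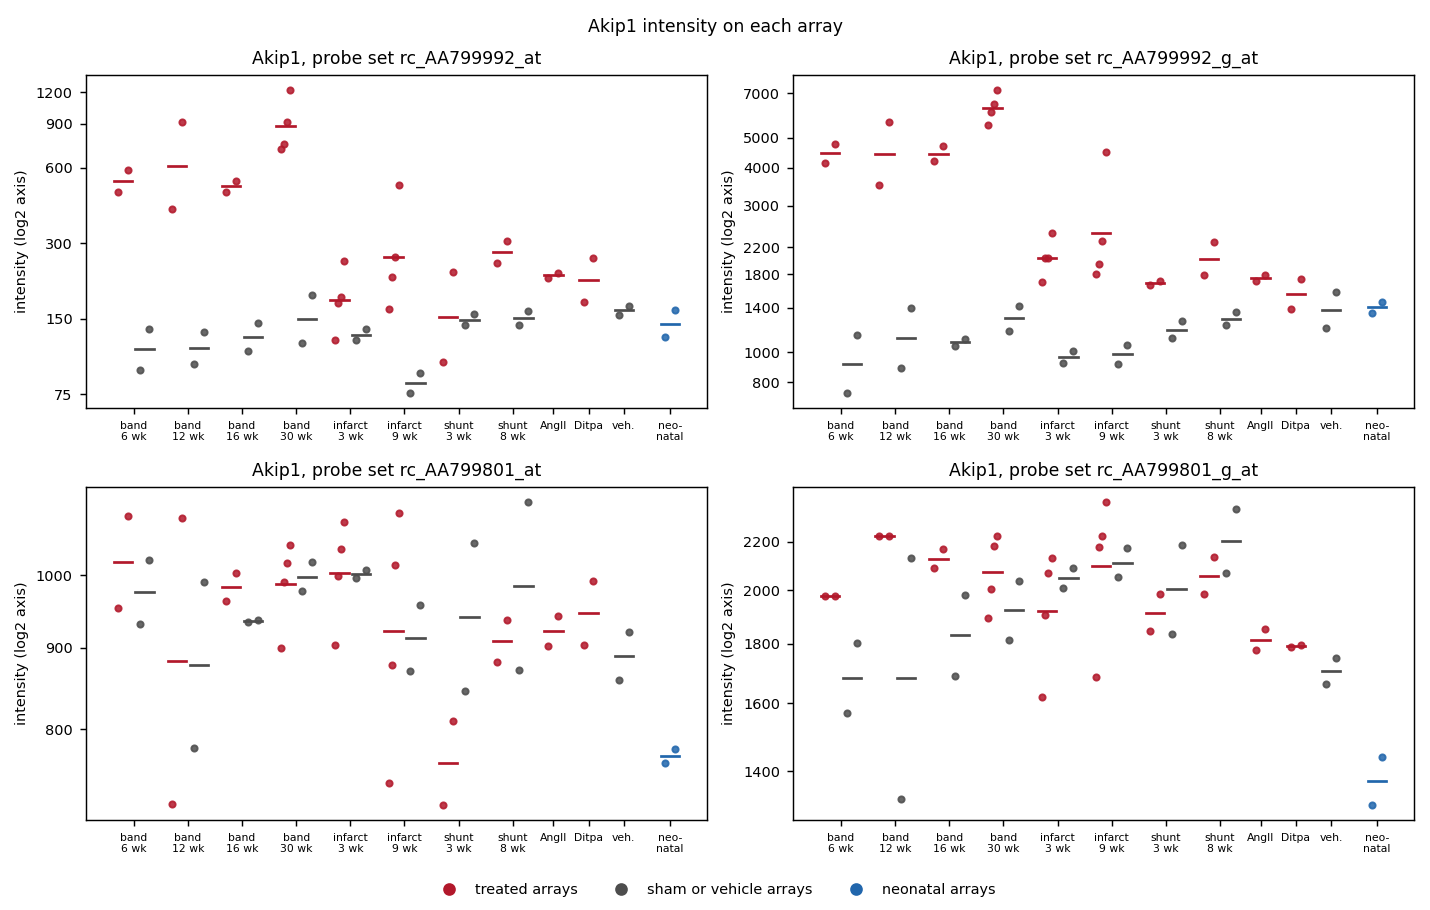
Intensity of the 4 Akip1 probe sets on each of the 46 arrays, on log2 axes that differ between panels. Points are single arrays, with treated groups (red) left of their own sham or vehicle (grey) and the neonatal group (blue) at the right, and bars are means of the log2 values. In the upper panels all 10 banded arrays stand above every banding sham array, while in the lower panels banded and sham arrays overlap.

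The disagreement was also seen array by array. Over 46 arrays Pearson's r of the log2 values was 0.947 between rc_AA799992_at and rc_AA799992_g_at and 0.445 between the rc_AA799801 probe sets, but 0.089 to 0.300 across the pairs. In the 18 control arrays alone r was 0.737 and 0.672 within pairs and 0.027 to 0.190 across. These correlations are descriptions over arrays that share scaling and, in the first case, the hypertrophy groups. Which pair measures the Akip1 transcript was not tested, since no probe sequences were used here.

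The probe sets most like rc_AA799992_g_at over the 46 arrays were those of Csrp3 (muscle LIM protein of the sarcomeric Z-disc, r = 0.883), Acta1 (skeletal alpha-actin, a fetal gene of the heart, 0.860), Ptgfr (the prostaglandin F receptor, 0.856), Tsc22d1 (0.855) and Nppb (brain natriuretic peptide, 0.839). In the 18 controls the same 5 correlations were 0.524, 0.306, 0.030, 0.454 and 0.274, so the likeness was mostly that of the hypertrophy groups. For rc_AA799992_at the closest were Csrp3 (0.849), Acta1 (0.808), Gadd45a (0.798), Ptgfr (0.798) and Flnc (0.787). None of these genes was among the closest to the other pair. Those were Spire1 (0.795), Serpinb5 (0.782), Nefl (0.768), Cwc25 (0.768) and Lepr (0.766) for rc_AA799801_at, and Rab34 (0.789), Snf8 (0.732), Slc52a3 (0.726), Prss8 (0.696) and LOC102547720 (0.691) for rc_AA799801_g_at.

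Some markers of other cells moved in the treated hearts too. In the average over treated groups 3.64% of all 8740 probe sets were called higher and 1.57% lower. None of 3 endothelial markers (median -0.18 log2 after banding) and none of 2 erythroid markers was called in that average. Of 9 fibroblast markers 6 were called higher in the average over treated groups (median of the list 0.38 log2, and 0.44 after banding), and their summed intensity was 38690 to 64772 on banded arrays against 33354 to 47388 on the banding sham arrays. Of 5 macrophage markers 2 were called higher, with sums of 11687 to 18378 on banded against 8627 to 11617 on sham arrays, and of 5 smooth muscle markers 1. Among 3 atrial myocyte markers 1, Nppa, was called, and the sum of the 3 was 36871 to 56575 on banded against 10167 to 19702 on sham arrays. After banding Nppa stood at 2.41 log2, against 0.42 for Myl7 and 0.43 for Myl4. Nppa encodes atrial natriuretic peptide, which the paper counts among molecular markers of hypertrophy. No share of atrial cells is therefore read from this list. No cardiomyocyte marker of 10 was called in that average as deposited, and 1 was called lower after quantile normalization. The part of such shifts in the Akip1 values was not tested.

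Pde4a encodes a cyclic AMP phosphodiesterase of the rolipram-sensitive family. Its probe set M26715_at was modestly higher after banding and infarction. It read 3654 to 4785 with a median of 4440 in banded hearts, against 3029 to 3814 with a median of 3341 in sham. All 10 banded arrays were above the mean of their own sham arrays, although the ranges overlapped through the 16-week replicate 2 (3654), and the difference was 0.36 ± 0.0523 log2. It was 0.50 ± 0.0936 at 30 weeks and between 0.31 and 0.34 at the earlier times. The 8 infarcted arrays (3834 to 4670, median 4054) all lay above the 4 sham arrays (3130 to 3504, median 3325), by 0.30 ± 0.0662.

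The shunt gave 3389 and 3971 at 3 weeks against 3712 and 3579 in sham, and 3563 and 3906 at 8 weeks against 3302 and 3101 in sham. The 3-week estimate was 0.0093 ± 0.108 and that at 8 weeks 0.22 ± 0.108. Angiotensin II (3308 and 3193) and Ditpa (3245 and 3161) were close to vehicle (3301 and 3198), with estimates of 0.00034 ± 0.108 and -0.021 ± 0.108. Of the 26 treated arrays 22 were higher, for an average of 0.23 ± 0.0346. The other probe set of Pde4a, M25348_s_at, whose suffix marks probes that can match more than 1 transcript, averaged 0.052 ± 0.0503 (16 of 26 arrays). The 2 Pde4a probe sets were weakly related (r = 0.316 over 46 arrays and -0.105 over 18 controls). The probe sets closest to M26715_at were 2 of Nppa (atrial natriuretic peptide, 0.83 and 0.820) and 1 of Tsc22d1 (0.819), which in the controls alone had r of 0.142, 0.046 and 0.260.

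Pde4a has several starts, and RefSeq gave 4 windows for it. They are of interest because transcripts from different starts need not all reach a given probe set. Those 2 that hold the half-site are printed with it in capitals. In window 1 (GRCr8, chr8:27966737-27967036, plus strand) it lies 11 bases before the start, and in window 3 (chr8:27999163-27999462, plus strand) it is read on the opposite strand as CGTCA, beginning 18 bases before the start. The full element was in none of the 4.

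Pde4a window 1: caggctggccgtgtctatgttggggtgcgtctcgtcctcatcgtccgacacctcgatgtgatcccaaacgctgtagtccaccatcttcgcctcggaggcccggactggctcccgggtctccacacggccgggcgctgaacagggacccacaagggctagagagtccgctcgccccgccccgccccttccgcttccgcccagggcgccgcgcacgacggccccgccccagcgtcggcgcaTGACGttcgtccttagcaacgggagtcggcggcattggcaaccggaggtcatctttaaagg

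Pde4a window 3: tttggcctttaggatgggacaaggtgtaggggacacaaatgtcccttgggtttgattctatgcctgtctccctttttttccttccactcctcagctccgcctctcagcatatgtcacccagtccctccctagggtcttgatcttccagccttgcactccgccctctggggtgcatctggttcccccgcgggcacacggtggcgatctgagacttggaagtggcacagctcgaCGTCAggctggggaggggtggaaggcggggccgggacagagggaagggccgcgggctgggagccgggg

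A match of these letters is a description of the sequence and not a site of binding.

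Pkia encodes the alpha form of the inhibitor peptide, which occupies the catalytic cleft of protein kinase A and carries the free subunit out of the nucleus. L02615_at read 2156 to 2905 with a median of 2482 in banded hearts, against 1496 to 2517 with a median of 2179 in sham. Each of the 10 banded arrays was above the mean of its own sham pair, though the ranges overlapped, and the difference was 0.27 ± 0.0920 log2. The estimates were 0.21 ± 0.116 for infarction and 0.18 ± 0.134 for the shunt, and among the hormones 0.13 ± 0.190 for angiotensin II and 0.053 ± 0.190 for Ditpa. Over the treated groups it averaged 0.20 ± 0.0609, higher on 24 of 26 arrays.

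The other Pkia probe sets, rc_AA893743_at and rc_AA893743_g_at, share a tag and did not follow L02615_at (r = 0.134 and 0.047 over 46 arrays, against 0.767 between the 2 of them). Their averages were 0.083 ± 0.0600 and -0.039 ± 0.0518. At 9 weeks after infarction rc_AA893743_g_at read 5839, 5790, 6315 and 5871 against 7350 and 7363 in sham, all below. At 8 weeks of the shunt it read 6331 and 7072 against 9547 and 8594 in sham, also all below, with estimates of -0.31 ± 0.140 and -0.44 ± 0.162. The earlier times of both models (0.073 ± 0.140 and 0.096 ± 0.162) lay above 0.

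The sham hearts themselves differed widely in this probe set pair. Geometric means of rc_AA893743_at in the 9 control groups ran between 2048 (banding sham at 6 weeks) and 4981 (shunt sham at 8 weeks), a range of 1.28 log2 against a residual SD of 0.192 within groups. For rc_AA893743_g_at the range was 0.82 log2 with a residual SD of 0.161, between the same groups. The ranges of the other 9 probe sets lay between 0.19 and 0.96. At the 1 time that infarction and shunt shared, 3 weeks, rc_AA893743_at read 3538 and 3517 in infarction sham against 4228 and 4143 in shunt sham hearts, and the banding sham hearts ranged between 1634 and 3613 over their 4 times. The probe sets closest to rc_AA893743_g_at were Rchy1 (0.798), Ptp4a1 (0.779) and Txnl1 (0.760), and the likeness was also present in the 18 controls (0.877, 0.791 and 0.845).

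**Figure D2:**
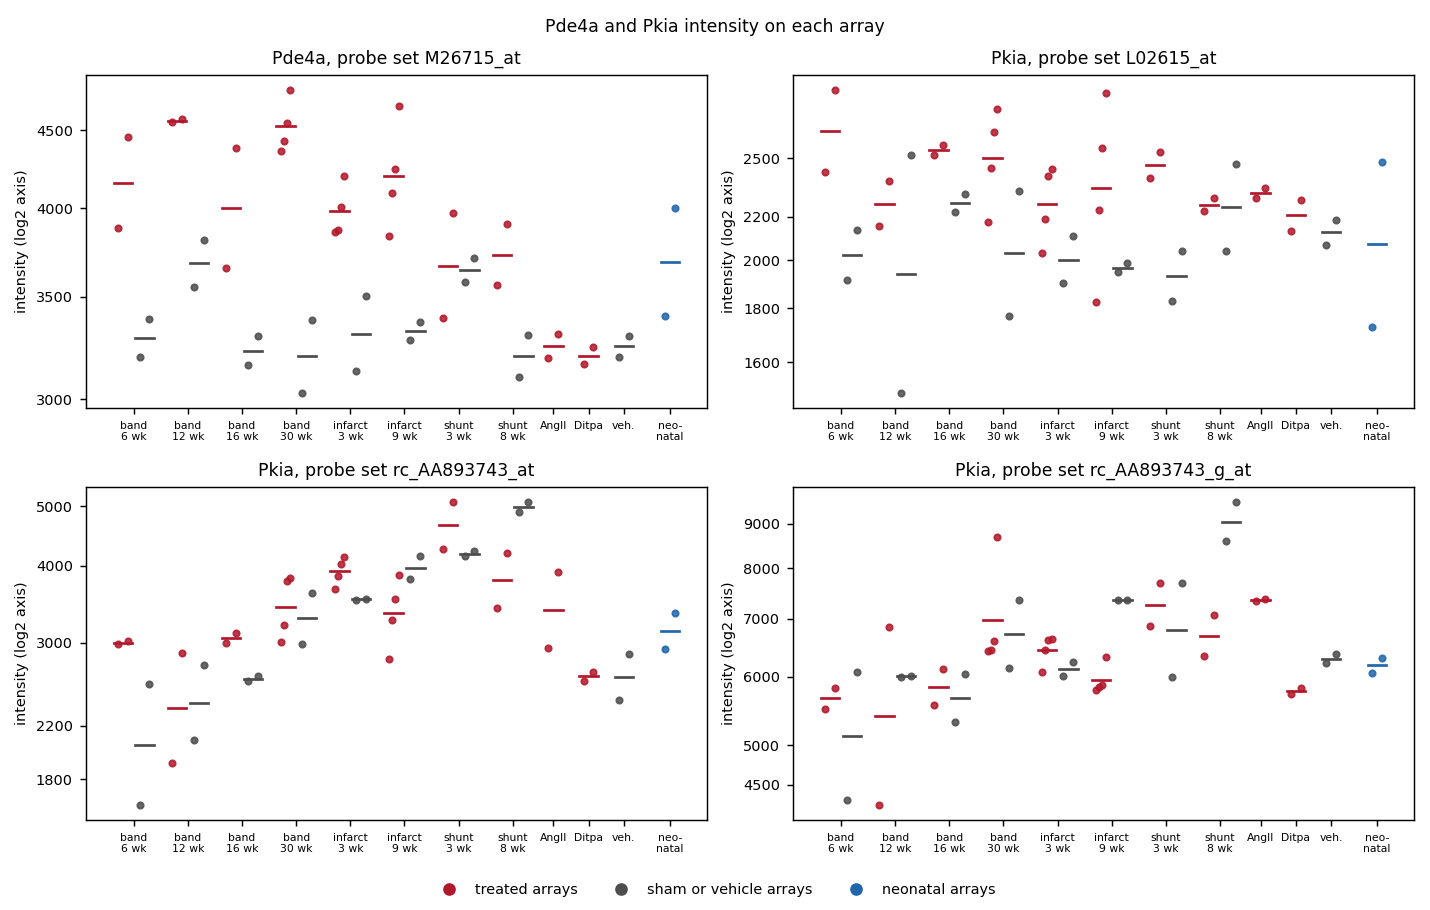
Intensity of 1 Pde4a and 3 Pkia probe sets on each array, on log2 axes that differ between panels, with treated arrays in red left of their own sham or vehicle in grey and neonatal arrays in blue. Bars are means of the log2 values. The 8 infarcted arrays of Pde4a M26715_at lie above their 4 sham arrays, and the sham arrays of Pkia rc_AA893743_at run between 1634 and 5072.

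The regulatory subunits changed little in the hypertrophic hearts. Prkar1a, the type I alpha subunit found in most tissues, averaged 0.10 ± 0.0604 log2 (19 of 26 arrays higher). It read 7478, 8287, 6930 and 9191 after 30 weeks of banding against 5543 and 7118 in sham (0.34 ± 0.163), and 7722, 5395, 7267 and 4942 at 9 weeks after infarction against 4657 and 5207 in sham (0.34 ± 0.163). Both pairs of groups overlapped. With angiotensin II it read 8614 and 7044 against 6420 and 6646 with vehicle (0.25 ± 0.189). Prkar2b, the type II beta subunit, whose probe set can match more than 1 transcript, averaged 0.0084 ± 0.0781 (14 of 26 arrays), and its estimates in the 5 models ran between -0.25 ± 0.244 (Ditpa) and 0.084 ± 0.118 (banding).

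**Figure D3:**
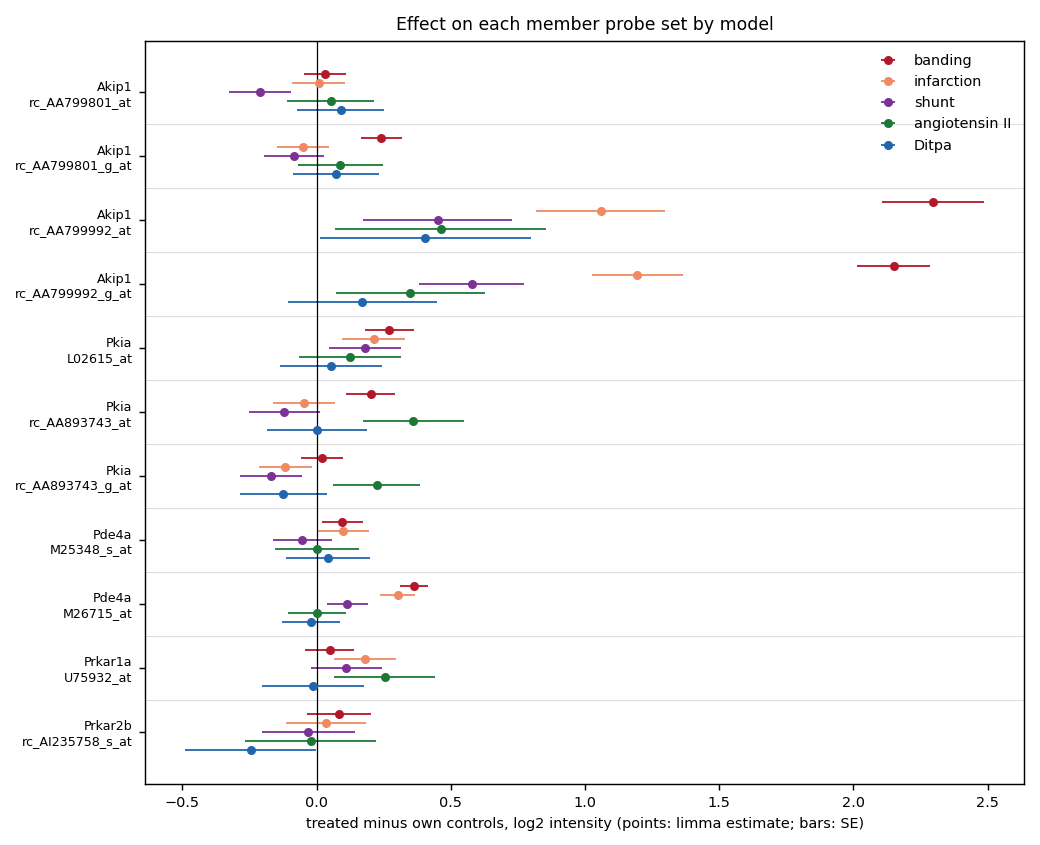
Difference between treated hearts and their own controls for the 11 probe sets in the 5 models, in log2 intensity. Points are limma estimates, lines are ± 1 SE, and time points of a model are averaged. Only rc_AA799992_at and rc_AA799992_g_at of Akip1 reach beyond 1 on this axis, after banding (2.30 and 2.15) and infarction (1.06 and 1.20).

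For each surgical model the arrays of all time points were set against all sham arrays of that model. Every banded array was above every sham array for 2 of the 11 probe sets, both of Akip1, and this held for 0.481% of all 8740. In infarction it held for 2 of 11, Akip1 rc_AA799992_g_at and Pde4a M26715_at, against 1.45% of all. With the shunt it held for 1 of 11, Akip1 rc_AA799992_g_at, against 3.08% of all. Since the genes were chosen with these contrasts in view, nothing is read from these counts.

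Between neonatal and adult control ventricle the regulatory subunits had the largest differences among the 11 probe sets. Neonatal results were also known when the set was chosen, so the tests that follow are not shown to be independent of the choice. Prkar1a read 14332 and 12402 in the neonatal ventricle, against 4657 to 8081 with a median of 5874 on the 18 adult control arrays. Both neonatal arrays lay far above all adult controls, and above all 26 treated arrays, of which the highest read 9191. The log2 difference was 1.16 ± 0.141 (2.23-fold, limma adjusted p = 1.04e-07 over 8740 probe sets, 2 neonatal against 18 control arrays). Prkar2b read 661 and 640 in the neonatal ventricle, against 229 to 376 with a median of 311 on the adult control arrays. It was higher by 1.11 ± 0.182 (2.16-fold, limma adjusted p = 1.67e-05), again with both neonatal arrays above all controls. The highest treated array read 536.

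RefSeq windows at the starts of these 2 genes are shown because they moved together here. That of Prkar1a is chr10:95120287-95120586, plus strand, and that of Prkar2b is chr6:54381362-54381661, minus strand, both in GRCr8 and both without TGACG on either strand.

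Prkar1a: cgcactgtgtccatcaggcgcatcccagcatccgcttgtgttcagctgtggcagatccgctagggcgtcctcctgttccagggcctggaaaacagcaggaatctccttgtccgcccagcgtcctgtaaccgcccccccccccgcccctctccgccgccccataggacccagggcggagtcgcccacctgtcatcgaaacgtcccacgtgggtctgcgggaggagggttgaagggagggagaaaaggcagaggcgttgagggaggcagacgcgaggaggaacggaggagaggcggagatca

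Prkar2b: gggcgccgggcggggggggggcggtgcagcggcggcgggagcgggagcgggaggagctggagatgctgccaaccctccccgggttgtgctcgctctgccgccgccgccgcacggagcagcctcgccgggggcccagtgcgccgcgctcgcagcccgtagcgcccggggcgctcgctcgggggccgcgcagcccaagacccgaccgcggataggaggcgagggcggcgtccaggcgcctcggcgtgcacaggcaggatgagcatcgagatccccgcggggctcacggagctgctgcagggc

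The Prkar2b window holds 79.0% and the Prkar1a window 65.3% G and C. Of the 7 windows of the 4 genes found in the table, 2 held TGACG. No window was matched for Pkia.

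Against the same controls Akip1 was not higher in the neonatal ventricle beyond the spread. With rc_AA799992_g_at it read 1463 and 1346 in neonatal hearts, against 738 to 1568 on adult control arrays (0.32 ± 0.208 log2, limma adjusted p = 0.249, 95% interval -0.10 to 0.74). With rc_AA799992_at it read 126 and 163 in neonatal hearts, against 76.0 to 187 on adult control arrays (0.16 ± 0.293, adjusted p = 0.723). The other pair had estimates below 0. Here rc_AA799801_g_at read 1439 and 1310, against 1326 to 2347 with a median of 1995 on adult control arrays, and was called (-0.47 ± 0.118, adjusted p = 0.00252) although 1 control array lay between the neonatal values. For rc_AA799801_at both neonatal arrays (778 and 762) lay just below all adult control arrays (778 to 1113), and it was not called (-0.30 ± 0.121, adjusted p = 0.0578).

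Pde4a M25348_s_at fell in the neonatal ventricle, to 1198 and 1285 against 1353 to 2042 on adult control arrays (-0.36 ± 0.117, limma adjusted p = 0.0188), and M26715_at was not called (3400 and 4004 in neonatal hearts against 3029 to 3814 on adult control arrays, 0.14 ± 0.0806, adjusted p = 0.183). The 3 Pkia probe sets had estimates of 0.010, -0.017 and -0.070 log2, none called (adjusted p = 0.964, 0.945 and 0.700). Neonatal L02615_at read 2480 and 1728, nearly as far apart as the 18 adult control arrays (1496 to 2517).

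In all, 2 of the 11 probe sets were called higher and 2 lower in the neonatal ventricle, where 15.5% of all 8740 were called higher and 17% lower. The calls of Prkar1a and Prkar2b held with any 1 array left out and under every other setting tried, with differences of 1.01 and 1.19 after quantile normalization. Without neonatal replicate 2 the calls of rc_AA799801_g_at (adjusted p = 0.084) and M25348_s_at (0.0778) were lost, and that of M25348_s_at also without neonatal replicate 1 (0.223). The control arrays are the same that served the hypertrophy comparisons, and the median over all probe sets was -0.074 log2.

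Several cell markers differed between neonatal and adult ventricle, where 15.5% of all 8740 probe sets were called higher and 17% lower. Of 10 cardiomyocyte markers 9 were called lower (median -0.64 log2), but 8 of the 10 stood above 80% of the array's highest value on both neonatal arrays, and that value was itself lower there (24526 and 30195) than on many adult arrays. After quantile normalization 1 of the 10 was called lower (median 0.00124), so no difference is read from this list. Of 9 fibroblast markers 5 were called higher and 1 lower (median 1.36), with sums of 63729 to 93272 against 33354 to 62222 on the adult control arrays. All 3 atrial myocyte markers were called higher. The paper places atrial natriuretic peptide, the product of Nppa, in the fetal gene program, so no share of atrial cells is read from them. The counts of the fibroblast and atrial lists were the same after quantile normalization. Of 3 endothelial markers 1 was called higher, and of 2 erythroid markers 1 (2 after quantile normalization). Of 5 smooth muscle markers 2 were called higher and 1 lower, and of 5 macrophage markers 1 lower. The part of these shifts in the subunit values was not tested.

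**Figure D4:**
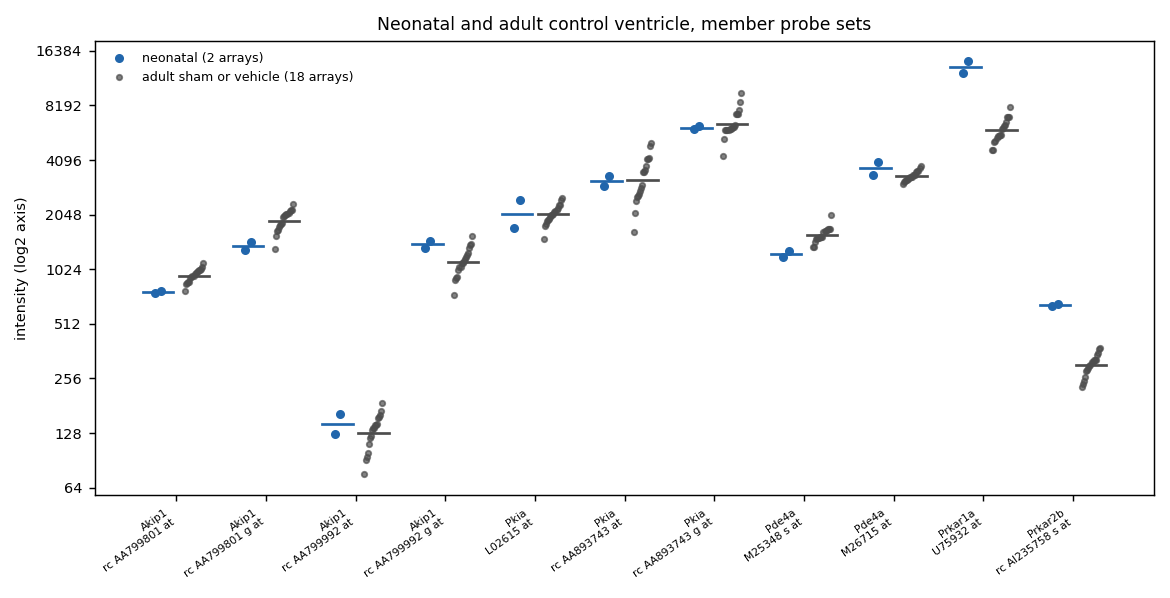
Intensity of the 11 probe sets in neonatal ventricle (blue, 2 arrays) and in adult sham or vehicle ventricle (grey, 18 arrays, drawn in rising order), on a log2 axis. Bars are means of the log2 values. The neonatal arrays of Prkar1a (14332 and 12402) and Prkar2b (661 and 640) lie above all adult controls, while most other probe sets overlap.

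The probe sets most like Prkar1a over the 46 arrays were Arf1 (a small GTPase of Golgi traffic, r = 0.925), Dad1 (a subunit of oligosaccharyltransferase, 0.880) and Csrp1 (0.878), and the likeness held in the 18 controls (0.932, 0.785 and 0.816). For Prkar2b they were Cdc20 (a mitotic activator of the anaphase-promoting complex, 0.794), Ptn (pleiotrophin, 0.791) and Tcf21 (a transcription factor of epicardial and fibroblast lineages, 0.783), with 0.275, 0.800 and 0.427 in the controls. The neonatal arrays were part of the first values and not of the second.

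Time after sham operation was examined between banding sham hearts at 30 and at 6 weeks (2 arrays each). None of the 11 probe sets was called by limma, where 0% of all 8740 were called, and 522 of all had an unadjusted p below 0.05. Pkia rc_AA893743_at came closest, at 2989 and 3613 in 30-week sham hearts against 2566 and 1634 in 6-week sham hearts (0.68 ± 0.187 log2, unadjusted p = 0.000975, adjusted p = 0.248). Akip1 rc_AA799992_g_at read 1172 and 1419 at 30 weeks against 1139 and 738 at 6 weeks (0.49 ± 0.278, adjusted p = 0.915).

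A list of 102 genes for cyclic AMP and protein kinase A signalling and NF-kappa-B included Pkia, Pde4a, Prkar1a and Prkar2b. Besides these the array measured 61 of the listed genes, each given by its brightest probe set. In the average over the treated groups 2 of the 61 were called higher and 1 lower, where 3.64% of all probe sets were called higher and 1.57% lower. Gnai2, the inhibitory G protein that restrains adenylyl cyclase, was higher on 22 of 26 arrays (0.20 ± 0.0492 log2, limma adjusted p = 0.0126), with treated arrays at 6157 to 10189 (median 8745) against 5871 to 9240 (median 7320) on controls. Another of its 3 probe sets also passed (0.23, adjusted p = 0.0248) and the remaining one did not (0.081, adjusted p = 0.621). Grk5, a kinase that desensitises beta-adrenergic receptors, was higher on 20 of 26 arrays (0.25 ± 0.0644, adjusted p = 0.0148), at 284 to 580 (median 437) against 253 to 506 (median 354) on controls. Its call was lost without vehicle replicate 2 (adjusted p = 0.0508).

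The catalytic subunit Prkaca was lower in this average (-0.18 ± 0.0519, limma adjusted p = 0.0394), with 7 of 26 arrays higher, and read 6314 to 9921 (median 8353) on treated against 6409 to 12112 (median 9042) on control arrays. This call was lost on leaving out any of 19 of the 46 arrays, up to an adjusted p of 0.161 without vehicle replicate 1, and its other probe set stood at 0.032 (adjusted p = 0.872). The second catalytic gene, Prkacb, was not called (0.027 ± 0.0556, adjusted p = 0.876). By its brightest probe set, none of the other regulatory subunits, anchoring proteins, phosphodiesterases, cyclases or substrates measured passed. A dimmer probe set passed for 2 substrates, Fxyd1 (phospholemman, 0.20, adjusted p = 0.0156) and Tnni3 (-0.18, adjusted p = 0.0306, and 0.0624 after quantile normalization). The median of the 61 was -0.021, against 0.0072 over all probe sets. All 3 calls were lost when the 5 models were weighted equally (adjusted p = 0.400 for Gnai2, 0.456 for Grk5 and 0.289 for Prkaca). After quantile normalization the split over all probe sets moved from 318 higher and 137 lower (69.9% higher) to 259 and 217 (54.4% higher), and Gnai2, Grk5 and Prkaca were still called.

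In the neonatal ventricle 8 of the 61 were called higher and 13 lower, 13.1% and 21.3%, which is close to the shares of all probe sets given above. After quantile normalization 6 were called higher and 9 lower, with Prkacb, Nfkb1, Akap5, Map2, Gnas and Tnni3 no longer called by their brightest probe sets. The kinase subunits differed among themselves. Prkar2a, the type II alpha subunit, fell to 2066 and 2159 in the neonatal ventricle against 2613 to 4281 (median 3566) on adult control arrays (-0.72 ± 0.136, limma adjusted p = 0.000104), the opposite direction to Prkar1a and Prkar2b. Prkar1b read 5598 and 5255 in the neonatal ventricle, against 4594 to 6271 on adult control arrays (-0.019 ± 0.123, adjusted p = 0.927). Of the catalytic genes Prkacb was higher (3202 and 2289 against 1834 to 2647 on adult control arrays, 0.38 ± 0.129, adjusted p = 0.0251), as was its second probe set (0.89, adjusted p = 2.6e-05), and Prkaca was not called (0.086 ± 0.121, adjusted p = 0.628). The call of the brightest Prkacb probe set rests on neonatal replicate 1 and was lost without it, and after quantile normalization its limma adjusted p was 0.0624. The second probe set read 464 and 467 on the neonatal arrays and was still called after quantile normalization (0.99, adjusted p = 2.15e-05).

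Among 11 anchoring proteins 3 were called higher and 3 lower. Ezr, which links membrane to actin and can anchor the kinase, read 5226 and 4781 in neonatal hearts, against 2005 to 2794 on adult control arrays (1.04 ± 0.106, limma adjusted p = 3.42e-09), and Akap8 (0.83, adjusted p = 0.000733) and Akap12 (0.29, adjusted p = 0.0221) were higher too. Akap1, Akap5 and Map2 were called lower at -0.35, -0.41 and -0.32 (adjusted p = 0.0172, 0.0165 and 0.0446). The probe sets of Akap1 disagreed, as 2 dimmer ones passed in the other direction (0.69 and 0.47, adjusted p = 0.0106 and 0.00314). Of the 9 phosphodiesterases other than Pde4a, only Pde1b was called by its brightest probe set (-0.29, limma adjusted p = 0.0014). A dim probe set of Pde4b passed in the other direction (0.75, adjusted p = 0.00207), which its 3 brighter ones did not. None of 7 adenylyl cyclases was called.

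Upstream of the kinase, Gnai2 was higher (0.48, adjusted p = 0.00149) in the neonatal ventricle. Gnas, the stimulatory G protein, was called lower as deposited (-0.42, adjusted p = 0.00604), but its probe set stood at 79.7% of the highest value on both neonatal arrays, and after quantile normalization the sign turned (0.036, adjusted p = 0.747). Another Gnas probe set, which shares a tag with the first, was called lower on both scales (-0.47, limma adjusted p = 0.00523, and -0.46, adjusted p = 0.000341). Gnas probe sets from other sequences, X84047cds_at (0.039, adjusted p = 0.824) and L10326_at (-0.074, adjusted p = 0.651), were not called. They were not called after quantile normalization either (0.17, adjusted p = 0.207, and 0.018, adjusted p = 0.92). Adrb3, the beta-3 adrenergic receptor, was lower (-0.29, adjusted p = 0.0213). Rapgef4, the cyclic AMP sensor Epac2, was lower by 1.06 ± 0.224 log2 (101 and 130 in neonatal hearts against 155 to 360 on adult control arrays, adjusted p = 0.000414). Of 10 substrates of the cardiomyocyte 3 were called lower as deposited, Hspb6 (the small heat shock protein Hsp20), Tnni3 (cardiac troponin I) and Pln (phospholamban, the brake on the calcium pump), and 1 higher, Ppp1r1a (protein phosphatase inhibitor). Hspb6 read 9273 and 8719 in neonatal hearts, against 15602 to 28517 on adult control arrays (-1.23 ± 0.0975, adjusted p = 1.8e-11). Pln was at -0.50 (adjusted p = 0.023) and Ppp1r1a at 0.33 (0.0337). These 3 calls held after quantile normalization. That of Tnni3 did not, as its -0.77 (adjusted p = 0.00145) became 0.0015 (0.985). Its neonatal values stood at 100% and 99.9% of the arrays' highest, so no difference is read from it. Tnni3 and Pln were also in the cardiomyocyte list above.

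Dimmer probe sets of 3 further genes passed where the brightest did not, Arrb2 (0.29, adjusted p = 0.0392), Grk2 (0.38, 0.00891) and Fos (-0.47, 0.00149).

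Among transcription factors downstream, Atf2 was called higher (0.35, adjusted p = 0.0205), with a dim second probe set at -1.13 (adjusted p = 0.00321), and Nr4a1 lower (-0.52, adjusted p = 0.0081). Nfkb1 was higher (0.42, adjusted p = 0.00226, and 0.0678 after quantile normalization) and Nfkbia, the inhibitor of NF-kappa-B, lower (-0.71, adjusted p = 0.00644). Of the 21 calls, 5 (Prkar2a, Ezr, Pde1b, Rapgef4 and Hspb6) held whichever array was left out. Without neonatal replicate 1 the calls of Prkacb, Akap1, Akap8, Akap12, Map2, Adrb3, Gnai2, Ppp1r1a, Atf2 and Nr4a1 were lost (adjusted p = 0.0575 to 0.672), and without neonatal replicate 2 those of Akap1, Akap5, Map2, Adrb3, Gnas, Pln, Tnni3, Atf2, Nr4a1, Nfkb1 and Nfkbia (0.0543 to 0.407). The call of Map2 was also lost without any of 10 control arrays. The median of the 61 was -0.10, against -0.074 over all probe sets.

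**Figure D5:**
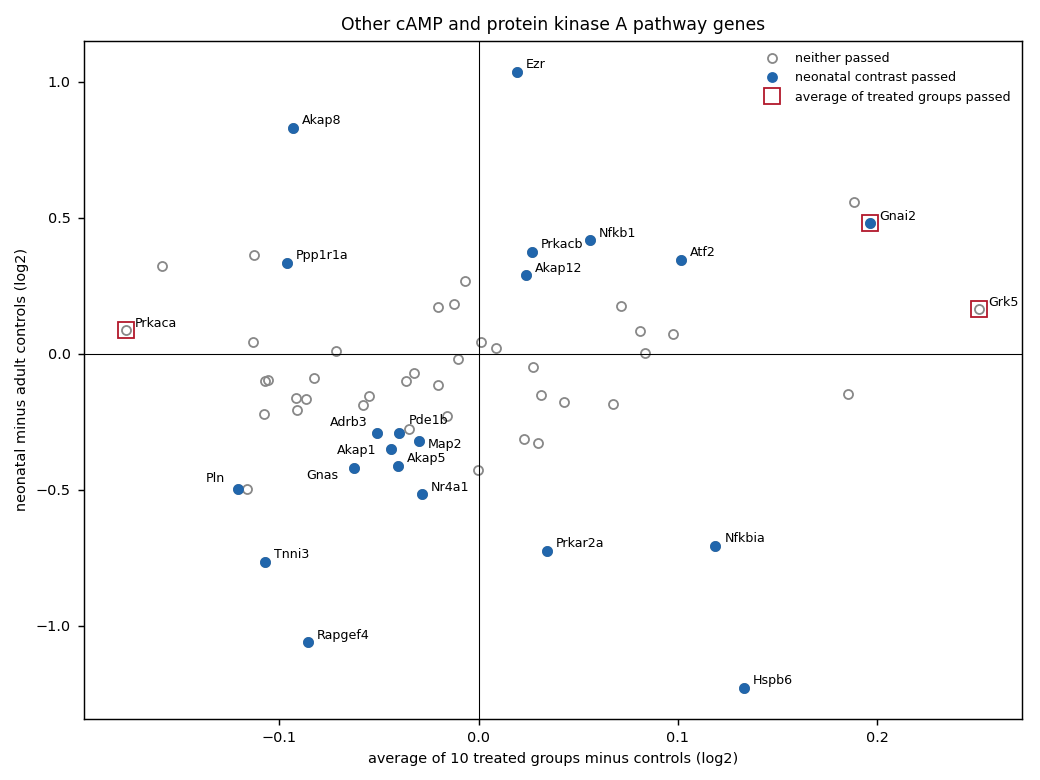
Each point is 1 of the 61 other pathway genes, placed by its log2 difference in the average over treated groups (horizontal) and in the neonatal ventricle against adult controls (vertical), which share control arrays. Filled points passed the neonatal test on the values as deposited (8 higher, 13 lower, of which Gnas and Tnni3 moved to about 0 after quantile normalization), squares the average over treated groups (Gnai2, Grk5 and Prkaca), at a limma adjusted p below 0.05, and the vertical axis spans a wider range than the horizontal one.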

How the data were processed

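Left ventricular RNA was measured on 46 Affymetrix rat oligonucleotide arrays, 1 RNA pool each. The authors scaled the arrays by an invariant set of probes and fitted the perfect-match-only dChip model, and deposited 1 linear intensity for each of 8740 probe sets. The methods describe the pools of a time point as independent, made by splitting its animals at random. No genome build is involved in these values. Each of the 46 columns was mapped to its sample by title (0 columns left out).

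Intensities below 16 were raised to 16 and put on the log2 scale. A mean was fitted to each of the 20 groups with limma 3.58.1 in R 4.3.3 (26 residual degrees of freedom, moderated by eBayes), and p-values were adjusted by Benjamini-Hochberg over all 8740 probe sets, with a threshold of 0.05. A treated group was compared with its own 2 control arrays, the 10 treated groups were averaged with equal weight, and neonatal ventricle was compared with the mean of the 9 control groups. The pipeline was tested on simulated data. The number of arrays limits the precision.

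The platform annotation names 1 gene for 7006 probe sets, several for 308 and none for 1426. The rule for the genes named was as follows: every probe set of the 5 genes, pathway genes called in the average or the neonatal comparison plus Prkaca and Prkacb, the 5 probe sets most correlated with each Akip1 probe set, and the top 3 for the brightest probe set of each other gene. The 5 genes, the pathway lists and the marker lists were chosen with earlier results of these data known. Prkar1b was added after its values were seen. Promoter windows are those of RefSeq. Alternatives were other floors (1 and 50), quantile normalization, a filter on probe sets below 100, array weights, other controls and averages, a rank sum test, a replicate block and leaving out each array. A block that includes the 3-week infarction sham arrays, and quantile normalization of the marker lists, were added after seeing the data.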

Additional observations from a re-analysis of the deposited data

Results flagged for a closer look

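In groups of 4 arrays, 33 tests were made, each of 1 probe set in 1 group. In 3 of them 1 value stood so far from the other 3 that it passed Dixon's criterion. Chance does this in about 1 of 20 separate tests, but these tests share arrays and are not separate. Pkia rc_AA893743_g_at read 8693.67 on 30-week banding replicate 4, where the other 3 arrays lay at 6421.25 to 6602.34. Pde4a M25348_s_at read 2144.08 on the same array, where the others lay at 1630.08 to 1692.34. Pkia rc_AA893743_g_at read 6315.4 on 9-week infarction replicate 3, with the others at 5789.99 to 5870.96.

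In 7 cases every array of 1 model lay above and every array of another below the mean of its controls. These differences between models were not tested, and they hold few arrays. Each case involves angiotensin II or Ditpa, with 2 arrays each against the same 2 vehicle arrays. The share of such cases among all 8740 probe sets was not computed, so nothing is read from their number. For Akip1 rc_AA799801_at the angiotensin II effect exceeded that of the shunt by 0.263 log2 and the Ditpa effect exceeded it by 0.301. For rc_AA799801_g_at the same differences were 0.172 and 0.155. For Pkia rc_AA893743_g_at angiotensin II (0.224) exceeded Ditpa (-0.125) by 0.348, against the same vehicle arrays. For Pde4a M26715_at banding exceeded Ditpa by 0.385 and infarction exceeded Ditpa by 0.323.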

How the results depend on the processing

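The averages of Akip1 rc_AA799992_at and rc_AA799992_g_at over the treated groups stayed above 0 under the alternatives run for them. The genes were chosen for this rise, so that supports nothing further. The rank sum test and the mean of a gene's probe sets were run for pathway genes only. Without the banding groups the 2 averages were 0.648 and 0.678, and that of rc_AA799992_g_at was 0.889 with the 5 models weighted equally. Leaving out 1 array moved them between 1.25 and 1.37 and between 1.23 and 1.30. With the vehicle arrays as the only controls, 2 of the 11 probe sets were called in the neonatal ventricle (4 before, 2 to 5 on leaving out 1 array), the calls lost being rc_AA799801_g_at (adjusted p = 0.204) and M25348_s_at (0.419), and 4 pathway genes were higher and 4 lower. Leaving out 1 array gave 2 to 10 higher and 4 to 15 lower, the lowest counts being those without neonatal replicate 1 (2 higher) and replicate 2 (4 lower). After quantile normalization the called neonatal differences of Gnas (-0.42) and Tnni3 (-0.77) became 0.036 and 0.0015, and the 8 higher and 13 lower pathway genes became 6 and 9. Uncalled neonatal estimates of the 11 probe sets changed sign, to -0.0289 (quantile normalization) and -0.0381 (vehicle only) for Pkia L02615_at, -0.175 for Akip1 rc_AA799992_at and 0.249 for Pkia rc_AA893743_at (vehicle only). Leaving out 1 array moved these 3 between -0.25 and 0.271, -0.0281 and 0.34, and -0.115 and 0.082. Akip1 rc_AA799801_at was called with array weights (adjusted p = 0.0315) and with the controls as 1 group (0.0433), and on leaving out any of 6 adult arrays (0.0316 to 0.0438). In the average over treated groups the 2 higher and 1 lower pathway genes became 0 and 0 with the models weighted equally, without the banding groups, without the infarction groups and in the rank sum test with Bonferroni. They became 3 higher (Hspb6 beside Gnai2 and Grk5) and 3 lower (Adcy6 and Cacna1c beside Prkaca) after quantile normalization and 0 lower with the mean of a gene's probe sets, and ranged over 1 to 3 higher and 0 to 2 lower on leaving out 1 array. Why these counts changed was not tested. Among groups compared with each other, replicate numbers are shared by the hormone, vehicle, neonatal and 3-week infarction sham arrays, whose deviations did not go together (r between -0.143 and 0.152). With a replicate block for the hormone, vehicle and neonatal arrays the neonatal difference of Prkar1a was 1.16 (adjusted p = 1.57e-07), 4 of the 11 probe sets were called, and 9 pathway genes were higher and 13 lower. With the 3-week infarction sham arrays in the block, added after seeing the data, the counts were 4, 8 and 13. With 2 arrays in most groups, the SE of the difference at a single time point was between 0.0936 and 0.393 log2, depending on the probe set.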
